A study of Homo sapiens with 4 samples.

Results

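The 35 genes described here encode sugar carriers, the enzymes of glycolysis and of the pentose phosphate pathway, lactate dehydrogenase, the lactate carriers and the kinases that switch off pyruvate dehydrogenase. They were chosen by gene symbol, and each matched 1 of 58302 gene rows. RNA was sequenced in 4 libraries of BLaER1, a human B cell leukaemia line in which C/EBPα, a transcription factor of myeloid cells, is fused to the part of the oestrogen receptor that binds hormone. Of these, 2 libraries came from undifferentiated cells and 2 from cells treated for 5 to 6 days with 100 nM oestradiol and the cytokines IL-3 and M-CSF. The labels write a concentration of 10 ng/ml once, before IL-3. All 4 libraries share the line and its fusion, and every result rests on this single line. The labels do not say whether replicate libraries are separate cultures, and p-values thus reflect a spread that may be technical only.

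Glucose enters the cell through carriers of the SLC2A family, is trapped by hexokinase and is split by glycolysis to pyruvate. Phosphofructokinase sets the pace and is stimulated by fructose 2,6-bisphosphate, the product of the PFKFB enzymes. Pyruvate is then reduced to lactate, which leaves through SLC16A carriers, or enters mitochondria, where the PDK kinases restrain its oxidation. The pentose phosphate branch draws off glucose 6-phosphate to make NADPH and ribose, and macrophages use that NADPH for the oxidative burst. Several steps are served by alternative genes, called paralogs here, whose products differ in regulation or substrate affinity.

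Values are the authors' TPM, an abundance normalized for gene length that sums to the same total in each library. The depth of each library is unknown, and no counting error can be given. The stage labels were checked on marker genes. The 4 B lineage markers summed to 95.1 and 74.2 TPM before and to 5.01 and 5.89 TPM after differentiation, and the 4 macrophage markers to 7.16 and 6.19 TPM before and to 418 and 486 TPM after it. The T cell markers CD3E and CD3D were listed at 0 in every library, and the fibroblast markers COL1A1 and COL1A2 summed to at most 0.28 TPM. Protein-coding genes took 12.2% and 13.5% of the summed TPM after differentiation and 23.0% and 15.6% before it. The first undifferentiated replicate exceeded the second by a median of 0.50 on the log2 scale over all tested genes and by 0.57 over the tested members, 25 of which were higher in replicate 1. Fewer cells of a type and less RNA per cell cannot be told apart in such bulk samples.

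The summed level of the 35 genes was 735 and 909 TPM in differentiated cells and 1951 and 1131 TPM in undifferentiated cells. As a share of protein-coding TPM the sums were 0.603% and 0.674% after and 0.848% and 0.725% before differentiation, and the stages did not overlap on either scale. LDHA and LDHB alone contributed 64.8 and 74.8 TPM to the summed level after and 581 and 281 TPM before differentiation. A sum follows its most abundant genes, so this separation does not describe the 35 genes alike. Of the 35 genes, 30 reached 1 TPM in at least 2 libraries and were tested with limma on log2(TPM + 1). SLC2A5, PFKFB2, FBP1, ENO2 and SLC16A7 did not reach that level. A gene was called when its adjusted p over all 10180 tested genes was below 0.05. By this rule 7 members were higher in differentiated cells, 5 were lower and 18 were not called. Among all tested genes, 18.6% were called higher and 22.8% lower, and the members' shares of 23.3% and 16.7% are close to that background. HK3, PFKFB4, PDK3, PDK4 and SLC16A3 passed the filter only through the differentiated libraries and so had to differ, which limits what the count of 7 shows. The median log2 difference was -0.03 over the tested members and -0.14 over all tested genes. The counts moved with single libraries, to 3 higher and 1 lower without differentiated replicate 1, to 4 and 1 without differentiated replicate 2, and to 6 and 10 without undifferentiated replicate 2. They became 14 higher and 4 lower when TPM was rescaled over protein-coding genes, a scaling that moved the median of all tested genes to 0.37. That run tested 34 members and 11945 genes, so its counts and median come from another set. Values rose with this rescaling while the filter of 1 TPM and the added 1 were kept. Low genes thus entered the test and weighed more, and the change is not one of scaling alone. LDHB, SLC16A3 and PDK4 were called in the same direction under every alternative in which they were tested (12, 12 and 11).

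**Figure D1:**
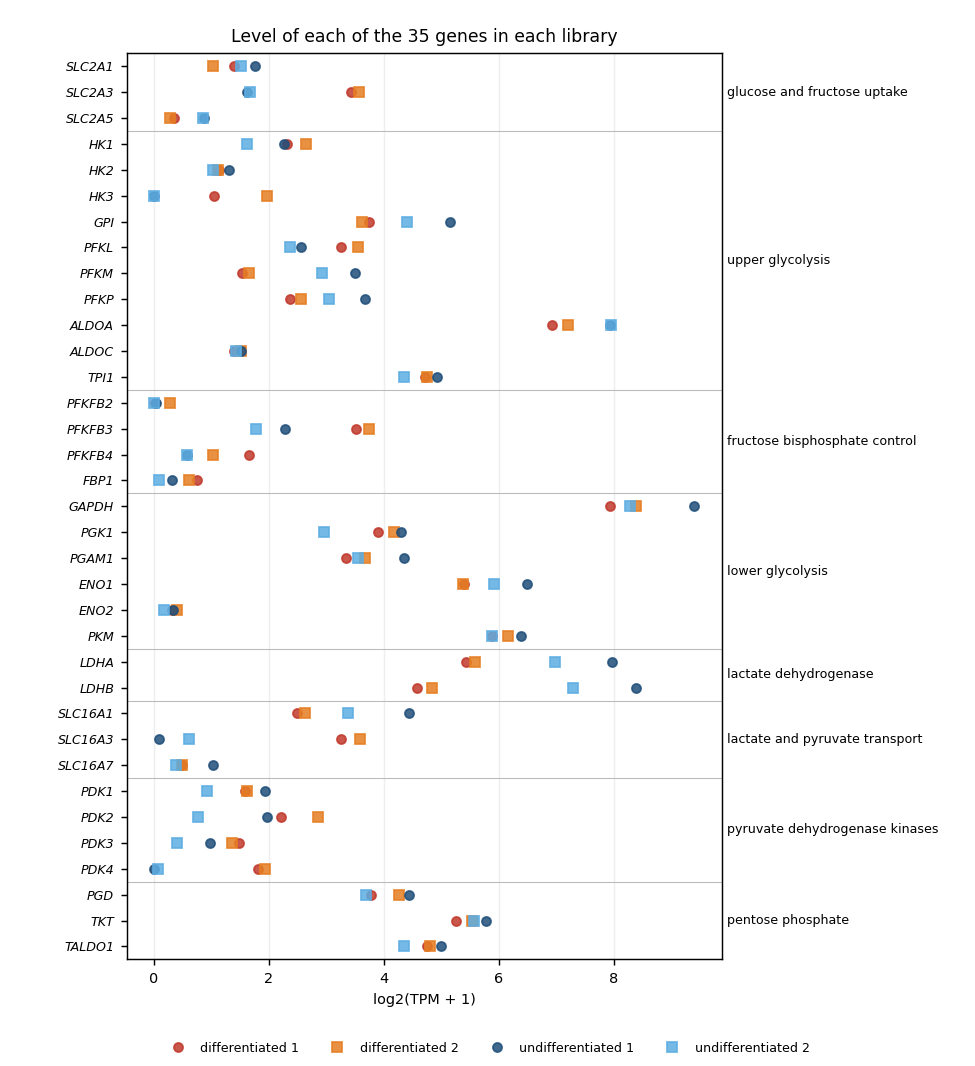
Level of each gene in each library, as log2(TPM + 1), grouped by role. Red and orange points are the differentiated libraries and dark and light blue points the undifferentiated libraries. LDHA, LDHB and SLC16A1 lie to the right in undifferentiated cells and SLC16A3, SLC2A3, PFKFB3 and PDK4 in differentiated cells, whereas the points of PKM, TPI1 and TALDO1 intermingle.

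**Figure D2:**
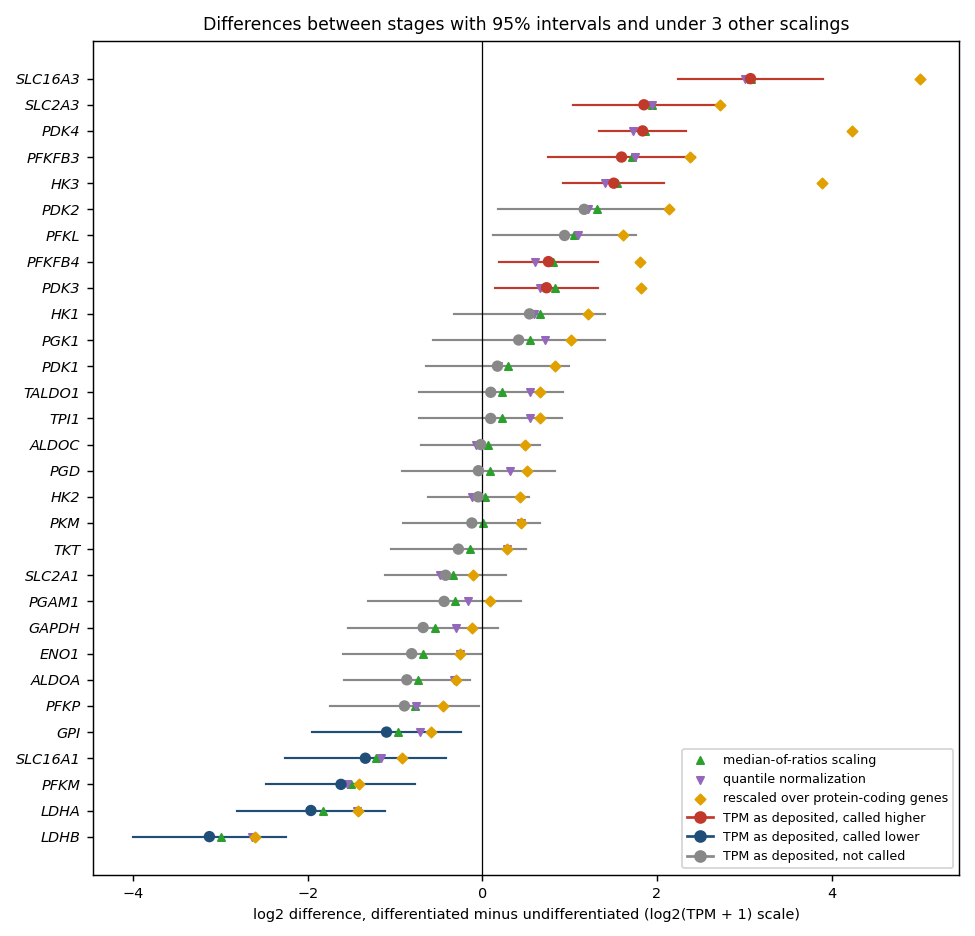
Log2 difference between stages for the 30 tested genes, with 95% intervals from limma (round points and lines), and the value under 3 other scalings (small symbols). LDHB (-3.13) and SLC16A3 (3.07) form the ends, and rescaling over protein-coding genes shifts every gene to the right.

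The use of paralogs within a step was measured as shares, which do not depend on how a library is scaled because all paralogs of a family are divided by the same total. For 9 families the share of each paralog in the family's TPM was computed in each library. The distance between stages was then taken as the summed absolute difference of the mean shares, divided by 2. It was 62.0 percentage points for the SLC16A lactate carriers, 44.4 for the SLC2A sugar carriers, 38.9 for phosphofructokinase, 25.8 for the PDK kinases, 24.0 for hexokinase and 20.2 for lactate dehydrogenase. The distance between the 2 libraries of a stage was at most 4.80, 6.93, 4.67, 12.9, 14.2 and 1.69 points in these families. In each of the 6, every pair of libraries from different stages lay farther apart than either pair from the same stage. PFKFB showed no such separation, with 1.74 points between stages (1.12 to 6.50 with 1 library left out in turn) against 9.52 and 5.39 within them. The aldolase and enolase families met the same criterion with only 0.564 and 0.436 points between stages, against at most 0.085 and 0.178 within them. The criterion thus says nothing about the size of a shift. No family was called, because with 2 libraries per stage the smallest two-sided p of an exact permutation test is 0.333.

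**Figure D3:**
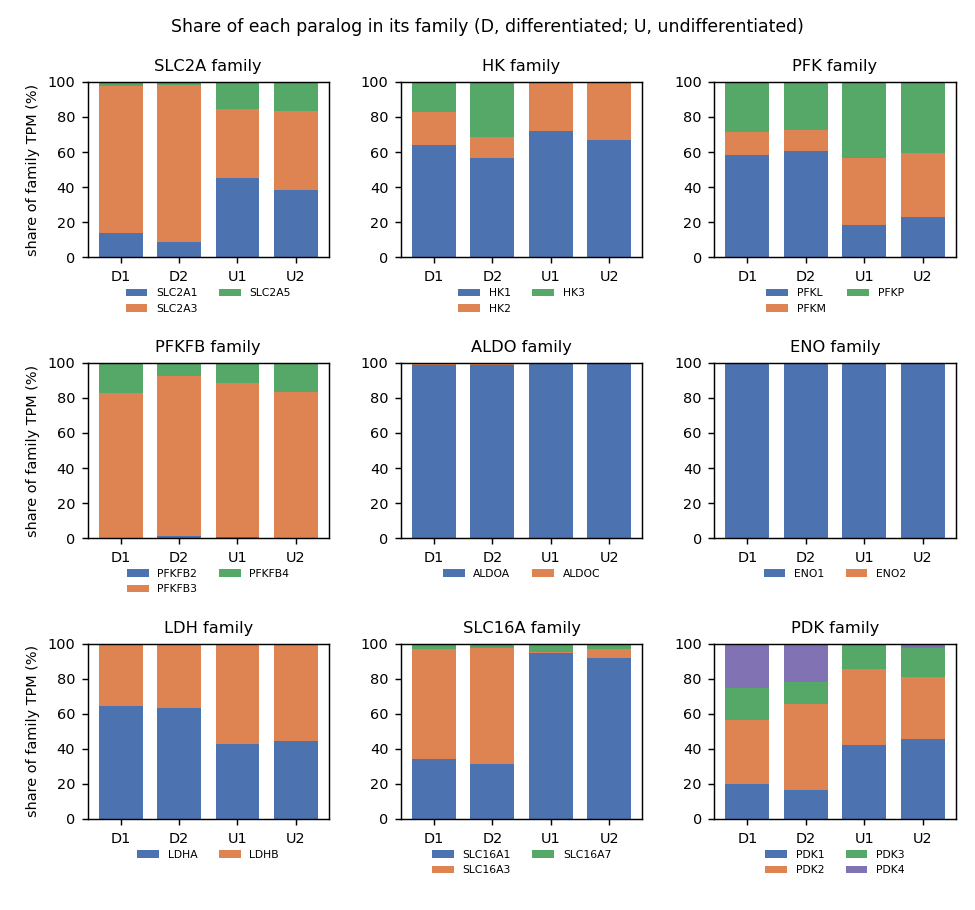
Share of each paralog in the summed TPM of its family, in percent, in the differentiated (D1, D2) and undifferentiated (U1, U2) libraries. SLC16A, PFK and LDH differ in leading paralog between stages, SLC2A is led by SLC2A3 in all libraries but U1, PFKFB is led by PFKFB3 in every library, and ALDOC and ENO2 are barely visible.

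Among the sugar carriers, SLC2A3 (ENSG00000059804), the high-affinity glucose carrier also known from neurons and leukocytes, was the member that rose. It had 9.76 and 10.9 TPM in differentiated libraries against 2.07 and 2.20 TPM in undifferentiated ones, and the stages were well separated. The mean was 4.83-fold higher after differentiation, with a log2 difference of 1.85 ± 0.38 (SE, limma adjusted p = 0.00159). SLC2A1, the carrier of most proliferating cells, stood at 1.63 and 1.04 TPM after differentiation against 2.38 and 1.85 TPM before it and was not called (log2 difference -0.42, 95% interval -1.11 to 0.27). SLC2A5, a fructose carrier, was below the filter at 0.28 and 0.21 TPM after differentiation against 0.83 and 0.80 TPM before it. SLC2A3 thus took 83.6% and 89.7% of the family's TPM in differentiated cells against 39.2% and 45.4% in undifferentiated cells, where SLC2A1 held 45.1% and 38.1%. SLC2A14, a close copy of SLC2A3, was listed at no more than 0.08 TPM, although reads of such copies cannot be assigned with certainty. The adjusted p of SLC2A3 was 0.143 and 0.172 without differentiated replicate 1 or 2, within a range of 0.000324 to 0.172 over 12 alternatives.

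Hexokinase, which traps glucose as glucose 6-phosphate, gained the myeloid paralog HK3. HK3 (ENSG00000160883) stood at 1.06 and 2.91 TPM in differentiated cells, was listed at 0 in both undifferentiated libraries, and was called higher (log2 difference 1.50 ± 0.27, SE, limma adjusted p = 0.000576). It passed the filter only through the differentiated libraries and so had to differ. The differentiated libraries differed from each other, so that HK3 made up 16.9% of hexokinase TPM in one and 31.1% in the other. HK1, the general paralog, led the family in all 4 libraries with 64.1% and 56.5% after and 72.1% and 66.8% before differentiation. Its levels of 4.01 and 5.28 against 3.82 and 2.09 TPM were not called as deposited (limma adjusted p = 0.307). Under the other scalings HK1 was called higher, with an adjusted p of 0.0392 (median-of-ratios), 0.0495 (quantile) and 0.00947 (protein-coding genes), over a range of 0.00947 to 0.794 in 11 alternatives. HK2, an inducible paralog, stood at 1.19 and 1.16 against 1.48 and 1.04 TPM, and the stages overlapped. HK3 lost its call when all genes above 0 were tested (0.126), and its adjusted p over 11 alternatives ran from 5.04e-09 to that value.

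GPI, the isomerase that follows hexokinase, was lower after differentiation. Its levels were 12.4 and 11.3 TPM in differentiated and 34.7 and 20.1 TPM in undifferentiated libraries, without overlap. The log2 difference was -1.10 ± 0.39 (SE, limma adjusted p = 0.0394). The adjusted p was 0.323, 0.376 and 0.0536 without differentiated replicate 1, differentiated replicate 2 or undifferentiated replicate 1, and without the last the log2 difference was -0.72. The call was also lost after rescaling over protein-coding genes (0.0618), and the range over 12 alternatives was 0.00578 to 0.376.

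The leading paralog of phosphofructokinase, the committed step of glycolysis, went from PFKP to PFKL. PFKM (ENSG00000152556), first known from muscle, was listed at 1.90 and 2.15 TPM after differentiation against 10.3 and 6.62 TPM before it. Its stages were separated, with a mean 4.19-fold higher in undifferentiated cells (log2 difference -1.62 ± 0.40, SE, limma adjusted p = 0.00512). PFKL (ENSG00000141959), first known from liver, had 8.60 and 10.7 TPM after differentiation and 4.93 and 4.15 TPM before it, without overlap. As deposited it missed the threshold (log2 difference 0.94, 95% interval 0.12 to 1.76, limma adjusted p = 0.0645), and the adjusted p ran from 0.00176 to 0.524 over 12 alternatives. PFKL was called higher under all 3 other scalings (0.0101, 0.00975 and 0.00176) and without undifferentiated replicate 1 (0.0265) or 2 (0.0423). PFKP, first known from platelets, stood at 4.18 and 4.90 TPM after differentiation against 11.7 and 7.31 TPM before it and was not called (limma adjusted p = 0.0882, with 0.0128 without undifferentiated replicate 2 and a range of 0.0128 to 0.518). In shares, PFKL took 58.6% and 60.4% of the family after differentiation against 18.3% and 22.9% before it. PFKM fell by 25.0 percentage points, from 38.4% and 36.6% to 12.9% and 12.1%. PFKP, which led before differentiation, went from 43.4% and 40.4% to 28.5% and 27.6%. The ratio of PFKL to PFKM was 4.53 and 4.99 in differentiated and 0.477 and 0.627 in undifferentiated libraries. Without differentiated replicate 1 or 2 the adjusted p of PFKM was 0.228 and 0.205, and it ran from 0.001 to 0.228 over 12 alternatives.

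The sequences upstream of this pair are shown because the shares of the paralogs moved apart. They are the 250 bases before the gene start in RefSeq (GRCh38.p14) for PFKL (chr21:44299803-44300052, plus strand) and PFKM (chr12:48105623-48105872, plus strand). Capitals mark ACGTG or GCGTG on either strand, the core bound by hypoxia-inducible factors.
PFKL: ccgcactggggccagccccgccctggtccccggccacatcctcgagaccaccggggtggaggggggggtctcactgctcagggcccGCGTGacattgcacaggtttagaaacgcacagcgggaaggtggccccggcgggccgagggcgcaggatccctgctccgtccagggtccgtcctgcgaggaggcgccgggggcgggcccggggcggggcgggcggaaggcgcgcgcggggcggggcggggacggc
PFKM: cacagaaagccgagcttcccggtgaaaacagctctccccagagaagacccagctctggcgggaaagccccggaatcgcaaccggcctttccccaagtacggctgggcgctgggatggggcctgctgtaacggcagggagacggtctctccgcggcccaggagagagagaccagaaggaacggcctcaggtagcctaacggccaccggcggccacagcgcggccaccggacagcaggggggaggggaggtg
PFKL holds 1 match and PFKM none. Only 1 start per gene was used here, and any other starts were not searched. Which start BLaER1 cells use was not measured.

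Of the bifunctional PFKFB enzymes, which make or remove fructose 2,6-bisphosphate, PFKFB3 and PFKFB4 rose. PFKFB3 (ENSG00000170525), whose kinase activity dominates, had 10.4 and 12.4 TPM in differentiated libraries against 3.88 and 2.44 TPM in undifferentiated ones. The stages did not overlap, and the mean was 3.61-fold higher after differentiation (log2 difference 1.59 ± 0.39, SE, limma adjusted p = 0.00534). PFKFB4 stood at 2.14 and 1.03 TPM after differentiation against 0.50 and 0.49 TPM before it and was called with a smaller difference (0.76 ± 0.26, SE, limma adjusted p = 0.0333). PFKFB4 passed the filter only through the differentiated libraries and so had to differ. PFKFB3 kept 82.8% and 90.9% of family TPM after and 88.0% and 83.3% before differentiation. PFKFB2 reached at most 0.21 TPM. FBP1, the gluconeogenic enzyme that opposes phosphofructokinase, was listed at 0.69 and 0.53 TPM after differentiation against 0.25 and 0.07 TPM before it and stayed below the filter. Without differentiated replicate 1 or 2 the adjusted p of PFKFB3 was 0.189 and 0.26 (range 0.000258 to 0.26 over 12 alternatives). PFKFB4 was not called without differentiated replicate 1 (0.0904, with a log2 difference of 0.44), undifferentiated replicate 1 (0.104) or undifferentiated replicate 2 (0.0937), nor after quantile normalization (0.0941), over a range of 0.0115 to 0.273.

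The upstream sequence of PFKFB3 (chr10:6144671-6144920, plus strand) is printed because this gene is a regulator of the pathway that rose, with capitals as above.
PFKFB3: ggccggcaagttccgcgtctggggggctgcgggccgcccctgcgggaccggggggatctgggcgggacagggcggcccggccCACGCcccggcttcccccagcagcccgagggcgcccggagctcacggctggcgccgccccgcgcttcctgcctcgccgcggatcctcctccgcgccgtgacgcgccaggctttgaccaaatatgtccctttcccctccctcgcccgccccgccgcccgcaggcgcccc
It holds 1 match, read on the minus strand.

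The remaining enzymes down to pyruvate did not pass the test in either direction. ALDOA, the main aldolase, had 121 and 147 TPM in differentiated libraries against 242 and 246 TPM in undifferentiated ones. These stages were separated, but the difference missed the threshold (log2 difference -0.87, 95% interval -1.59 to -0.15, limma adjusted p = 0.0528). It was called without undifferentiated replicate 1 (0.0434) or 2 (0.0394), over a range of 0.0331 to 0.378 in 12 alternatives. ALDOC, a brain paralog, stood between 1.62 and 1.87 TPM in all 4 libraries and TPI1 between 19.3 and 29.4 TPM. ENO1, the main enolase, was listed at 41.3 and 40.7 TPM after differentiation against 88.5 and 59.7 TPM before it (log2 difference -0.81, limma adjusted p = 0.0936). After median-of-ratios scaling (0.0455) and without undifferentiated replicate 2 (0.0127) ENO1 was called, within a range of 0.0127 to 0.431. ENO2, a neuronal paralog, stayed at or below 0.32 TPM.

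GAPDH, the most abundant member, had 242 and 334 TPM in differentiated libraries against 676 and 308 TPM in undifferentiated ones. The undifferentiated libraries lay on both sides of the differentiated value of 334 TPM, and the gene was not called (log2 difference -0.68 ± 0.40, SE, limma adjusted p = 0.191). Without undifferentiated replicate 2 alone the adjusted p was 0.0221, the lowest of a range that reached 0.772. PGK1 showed the same spread, with 14.0 and 17.1 TPM against 18.7 and 6.76 TPM, and PGAM1 with 9.18 and 11.7 against 19.3 and 10.7 TPM. Without undifferentiated replicate 1 PGK1 was called higher (0.0219, range 0.0219 to 0.868), and without undifferentiated replicate 2 PGAM1 was called lower (0.0436, range 0.0436 to 0.907). After rescaling over protein-coding genes PGK1 and TPI1 were called higher (0.0322 and 0.0281). PKM, the pyruvate kinase gene, stood at 58.0 and 70.5 TPM after differentiation against 83.1 and 58.3 TPM before it, with a log2 difference of -0.12 (95% interval -0.91 to 0.66). Its direction turned under all 3 other scalings. Gene-level TPM does not separate the PKM1 and PKM2 splice forms.

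Both lactate dehydrogenase genes fell, and the share of LDHB in the pair was lower after differentiation. LDHB (ENSG00000111716), the heart-type subunit that favours the oxidation of lactate to pyruvate, had 22.9 and 27.6 TPM in differentiated libraries against 332 and 156 TPM in undifferentiated ones. The stages were far apart, although undifferentiated replicate 1 was well above replicate 2, and the mean was 9.66-fold higher before differentiation, or 6.17-fold without undifferentiated replicate 1. The log2 difference was -3.13 ± 0.41 (SE, limma adjusted p = 5.71e-05), the largest fall among the members. LDHA (ENSG00000134333), the muscle-type subunit that favours lactate production, was listed at 41.9 and 47.2 TPM after differentiation against 249 and 125 TPM before it. Its mean was 4.20-fold higher before differentiation (log2 difference -1.97 ± 0.39, SE, limma adjusted p = 0.00135). LDHA therefore made up 64.7% and 63.1% of the family after differentiation against 42.8% and 44.5% before it, and the order of the pair was exchanged. The ratio of LDHA to LDHB was 1.83 and 1.71 in differentiated and 0.749 and 0.802 in undifferentiated cells. LDHB was called in all 12 alternatives, with an adjusted p from 1.48e-08 to 0.0481. The adjusted p of LDHA was 0.118 and 0.0942 without differentiated replicate 1 or 2 and ran from 0.000582 to 0.118.

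The upstream sequences of LDHA (chr11:18394313-18394562, plus strand) and LDHB (chr12:21657843-21658092, minus strand) are shown for comparison, with the same capitals.
LDHA: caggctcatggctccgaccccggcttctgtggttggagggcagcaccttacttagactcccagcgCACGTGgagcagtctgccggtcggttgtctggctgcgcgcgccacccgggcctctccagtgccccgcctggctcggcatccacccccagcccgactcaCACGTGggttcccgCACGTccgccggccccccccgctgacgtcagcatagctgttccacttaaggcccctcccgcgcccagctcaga
LDHB: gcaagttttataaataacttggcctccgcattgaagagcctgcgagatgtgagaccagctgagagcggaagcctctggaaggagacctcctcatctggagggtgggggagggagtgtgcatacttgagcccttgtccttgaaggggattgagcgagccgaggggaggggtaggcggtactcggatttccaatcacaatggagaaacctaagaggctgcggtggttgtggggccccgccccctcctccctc
LDHA holds 5 matches and LDHB none. Of these 5, CACGTG accounts for 2 sites, each of which reads as ACGTG on both strands. Upstream sequences were found for 32 of the 35 members, and 15 of them (46.9%) held ACGTG or GCGTG, against 43.1% of 27305 promoters of the same length. Among members called higher 3 of 6 and among those called lower 2 of 4 held a match. CACGTG was found in 3 members (9.38% against 6.49% of promoters). GAGGAAGT, a form of the site of the myeloid factor PU.1, was found in 0 members against 2.13%, and TTGCNNAA, a form of the C/EBP site, in 2 (6.25% against 9.13%), HK3 and SLC2A5. A match describes these letters only.

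The lactate carriers showed the widest exchange. SLC16A3 (ENSG00000141526), which encodes MCT4, the low-affinity exporter of glycolytic cells, had 8.56 and 11.0 TPM in differentiated libraries against 0.07 and 0.52 TPM in undifferentiated ones. The mean was 33.2-fold higher after differentiation, measured against a level below 1 TPM, and was 18.8-fold without undifferentiated replicate 1 and 139.9-fold without undifferentiated replicate 2. The log2 difference was 3.07 ± 0.38 (SE, limma adjusted p = 4.09e-05). SLC16A1 (ENSG00000155380), which encodes the widely used carrier MCT1, was listed at 4.60 and 5.21 TPM after differentiation against 20.6 and 9.33 TPM before it. It fell, with a mean 3.05-fold higher in undifferentiated cells (log2 difference -1.34 ± 0.43, SE, limma adjusted p = 0.0233). SLC16A7, which encodes the high-affinity carrier MCT2, was at 0.40 TPM in both differentiated and at 1.05 and 0.31 TPM in undifferentiated libraries. The share of SLC16A3 among these carriers was 63.1% and 66.3% after and 0.322% and 5.12% before differentiation, and that of SLC16A1 was 33.9% and 31.3% after and 94.9% and 91.8% before it. SLC16A3 was called in all 12 alternatives (adjusted p from 5.12e-09 to 0.026). It passed the filter only through the differentiated libraries and so had to differ, which limits what these calls show. SLC16A1 was not called without differentiated replicate 1 (0.348) or 2 (0.296), within a range of 0.00336 to 0.348. Without undifferentiated replicate 1 its fold was 1.90 and its log2 difference -0.81 (0.0439).

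The upstream sequence of SLC16A3 (chr17:82228185-82228434, plus strand) is shown because this gene rose most among the tested members, and it holds no match to ACGTG or GCGTG.
SLC16A3: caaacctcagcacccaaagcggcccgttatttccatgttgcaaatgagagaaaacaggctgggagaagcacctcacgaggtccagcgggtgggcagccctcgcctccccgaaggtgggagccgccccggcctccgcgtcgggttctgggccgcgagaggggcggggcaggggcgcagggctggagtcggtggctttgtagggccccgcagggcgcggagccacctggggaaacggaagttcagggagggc

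Carriers of this family reach the membrane with a partner protein. BSG, the partner of MCT1 and MCT4, was at 9.63 and 10.5 TPM after differentiation against 18.8 and 13.9 TPM before it and was not called (log2 difference -0.64, limma adjusted p = 0.198). EMB, an alternative partner, fell from 13.9 and 5.36 TPM to 1.67 and 1.89 TPM (log2 difference -1.81 ± 0.45, SE, limma adjusted p = 0.00575). The adjusted p of EMB was 0.243 and 0.219 without differentiated replicate 1 or 2, the former being the highest of 12 alternatives, and its log2 difference was -1.20 (0.0148) without undifferentiated replicate 1.

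Of the 4 genes for kinases that restrain the pyruvate dehydrogenase complex, PDK3 and PDK4 were called higher, beside 18.6% of all tested genes, and both are among the members that passed the filter only through the differentiated libraries. PDK4 (ENSG00000004799), a kinase known for its induction by fasting and lipid, had 2.52 and 2.80 TPM in differentiated libraries against 0 and 0.05 TPM in undifferentiated ones. It rose by a log2 difference of 1.84 ± 0.23 (SE, limma adjusted p = 4.24e-05), and its adjusted p over 11 alternatives ran from 2.01e-09 to 0.0372. PDK3 rose from 0.97 and 0.33 TPM to 1.81 and 1.58 TPM (0.73 ± 0.27, SE, limma adjusted p = 0.0452). PDK2, the most widely expressed kinase, stood at 3.61 and 6.24 TPM after differentiation against 2.90 and 0.70 TPM before it. The groups did not overlap but spread widely, and PDK2 was not called as deposited (log2 difference 1.17 ± 0.45, SE, limma adjusted p = 0.0558). It was called after each of the 3 other scalings (0.0138, 0.0199 and 0.00784) and without undifferentiated replicate 1 (0.0145), over a range of 0.00784 to 0.519. PDK1, a hypoxia-responsive kinase, overlapped between stages at 2.01 and 2.07 against 2.83 and 0.90 TPM. PDK1 took 42.2% and 45.5% of kinase TPM before and 20.2% and 16.3% after differentiation, whereas PDK4 took 0% and 2.53% before and 25.3% and 22.1% after it. PDK3 was not called without differentiated replicate 1 (0.204), differentiated replicate 2 (0.152) or undifferentiated replicate 2 (0.115, with a log2 difference of 0.45), nor with a pseudocount of 0.1 (0.0579), over a range of 0.00592 to 0.269.

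Other genes of the pathway were taken from a list of 51, of which 28 were tested, 1 was called higher, 9 lower and 18 not called. Their median log2 difference was -0.62, against -0.14 over all tested genes, and 3.57% and 32.1% of them were called higher and lower against 18.6% and 22.8%. The 11 genes of pyruvate entry held 5 of the falls. PDHA1 and PDHB, the subunits of the first enzyme of the complex, were listed at 4.37 and 6.92 and at 6.07 and 8.43 TPM after differentiation. Before it they stood at 21.5 and 14.9 and at 18.3 and 24.8 TPM (log2 differences -1.53 and -1.45, limma adjusted p = 0.00763 and 0.00864). DLAT, the second enzyme, fell from 8.22 and 4.94 TPM to 1.42 and 1.55 TPM (-1.57, limma adjusted p = 0.00607). The further falls were in DLD, the third enzyme, and PDP2, a phosphatase that counters the kinases (-1.36 and -1.38, limma adjusted p = 0.019 and 0.0119), both named after their values were seen. The complex member PDHX, the mitochondrial pyruvate carrier genes MPC1 and MPC2, and PDP1, PDPR and pyruvate carboxylase (PC) were not called. ADPGK, an ADP-dependent glucokinase, was the gene called higher, at 15.7 and 16.5 TPM against 10.0 and 3.41 TPM (log2 difference 1.29, limma adjusted p = 0.0356). Without differentiated replicate 1 none of these genes was called by limma, with 1 higher and 1 lower at an unadjusted p under 0.05, and without differentiated replicate 2 none was called, with 1 higher and 2 lower at that level. The adjusted p was then 0.281 and 0.141 for PDHA1, 0.27 and 0.159 for PDHB, 0.249 and 0.234 for DLAT, 0.315 and 0.279 for DLD, 0.374 and 0.209 for PDP2 and 0.366 and 0.395 for ADPGK. The log2 difference of ADPGK was 0.63 (0.0638) without undifferentiated replicate 2 and 1.96 (0.0035) without undifferentiated replicate 1, and that of DLD was -0.88 (0.0325) without undifferentiated replicate 1. By contrast, 16 were lower without undifferentiated replicate 2 and 7 higher without undifferentiated replicate 1. With these single differentiated libraries the limma fit gave 949 and 934 higher and 344 and 337 lower calls among all genes.

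**Figure D4:**
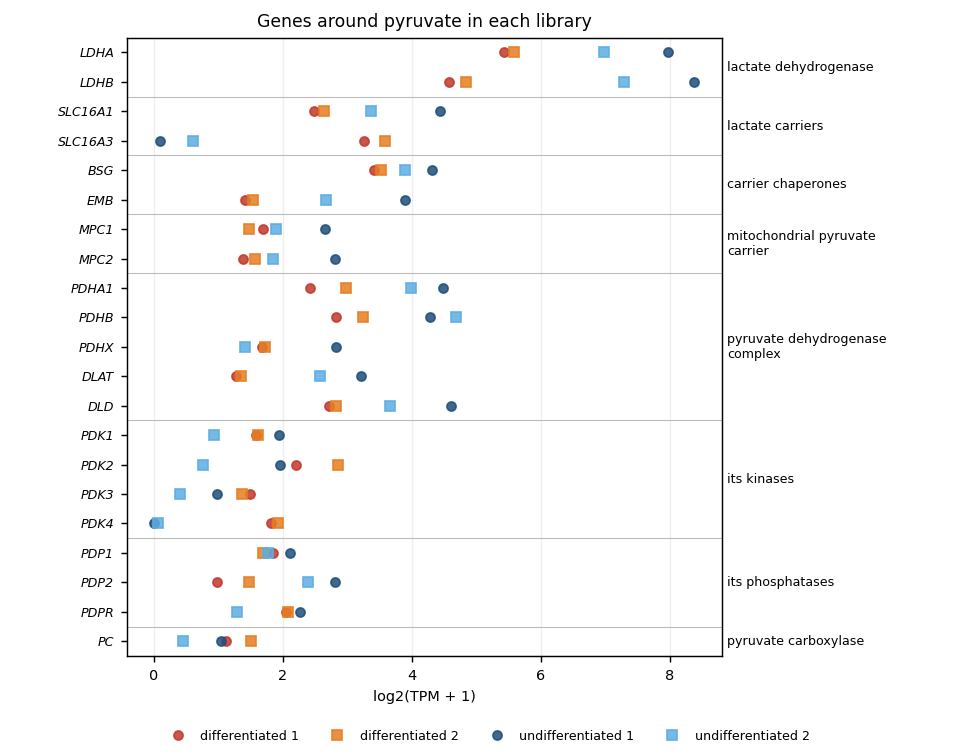
Level in each library, as log2(TPM + 1), of genes around pyruvate, grouped by function. PDHA1, PDHB, DLAT and DLD lie to the right in undifferentiated cells, PDK4 lies to the right in differentiated cells, and PDHX and PDK1 overlap between stages.

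The pentose phosphate enzymes among the members were not called. PGD, the second NADPH-producing enzyme of the branch, was listed at 12.7 and 18.3 TPM after differentiation against 20.8 and 11.9 TPM before it (log2 difference -0.05, 95% interval -0.92 to 0.83). TKT and TALDO1, transketolase and transaldolase of the non-oxidative part, stood at 37.2 and 45.1 against 53.6 and 46.2 TPM and at 25.8 and 26.9 against 30.9 and 19.5 TPM. The log2 differences were -0.28 (95% interval -1.05 to 0.50) for TKT and 0.10 (-0.73 to 0.92) for TALDO1. PGD turned to a positive difference under each of the 3 other scalings and TKT under quantile normalization and rescaling over protein-coding genes. TALDO1 was called higher after the latter (0.0276, range 0.0276 to 0.964). Of 7 further genes of the branch 5 were tested, and 1 was called, where 22.8% of all tested genes were called lower. This was RPIA, the ribose 5-phosphate isomerase, named after its values were seen, at 0.71 and 0.69 TPM after against 2.78 and 1.50 TPM before differentiation (log2 difference -0.85, limma adjusted p = 0.0331). RPIA passed the filter only through the undifferentiated libraries and so had to differ. It was called in 5 of 11 alternatives, over a range of 0.00312 to 0.296, and its log2 difference was -0.56 (0.0551) without undifferentiated replicate 1.

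Hypoxia-inducible factors are known activators of many of these genes, and 8 genes of that control were listed beside them. HIF1A was at 120 and 104 TPM after differentiation against 44.5 and 26.0 TPM before it, EPAS1, which encodes HIF-2α, at 14.3 and 16.3 against 0.74 and 0.51 TPM, and their partner ARNT at 5.87 and 6.48 against 2.90 and 1.73 TPM. These 3 of the 7 tested genes were called higher, beside 18.6% of all tested genes (log2 differences 1.68, 3.33 and 1.14, limma adjusted p = 0.00303, 2.31e-05 and 0.0334). VHL, EGLN1, EGLN2 and HIF1AN, which limit the factors, were not called, and EGLN3 was listed at no more than 0.03 TPM. Among the members that rose, SLC2A3, PFKFB3, PFKFB4 and SLC16A3 are known hypoxia targets, but so are LDHA and GPI, which fell, and ALDOA, ENO1, PGK1, PDK1 and GAPDH, which were not called. The targets named are examples and not a full list, so their numbers by direction carry no weight. Whether these factors took part in any of the differences was not tested. EPAS1 passed the filter only through the differentiated libraries and so had to differ. Without differentiated replicate 1 or 2 its adjusted p was 0.0251 and 0.0258, and HIF1A (0.163 and 0.122, range 0.000162 to 0.163) and ARNT (0.346 and 0.405, range 0.000911 to 0.405) were not.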

How the data were processed

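RNA sequencing of 4 BLaER1 libraries was used, 2 per stage, grouped by sample title. The values deposited by the authors are TPM in 1 table of 58302 genes. Trimmomatic, STAR and RSEM are named in the submitters' processing notes. Their versions, the genome build and the annotation were not given in the sources used here. Stranded libraries were made from total RNA, per the labels' protocols. RSEM divides reads among similar genes, and an abundant RNA lowers the TPM of all others.

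Genes that reached 1 TPM in at least 2 libraries were compared on log2(TPM + 1) with limma 3.58.1 in R 4.3.3 (moderated variances with a trend, two-sided, Benjamini-Hochberg over 10180 genes, 2 residual and 10.9 prior degrees of freedom). Log2 differences on this scale understate changes of low genes, and folds are ratios of mean TPM. The procedure was tested on data simulated from its own fitted model, with no shift of whole libraries. Such a test checks that the code runs as meant and cannot check the model's assumptions. Alternatives were a pseudocount of 0.1, other filters, 3 other scalings, no trend, a replicate block and leaving out each library. Protein-coding genes came from GENCODE 29, which held 58039 of the IDs. Promoters came from RefSeq (GRCh38.p14), with 1 start used per gene.

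The members and gene lists were chosen with earlier results of these data known. All members are named, with up to 4 called genes per direction (largest log2 differences) of the other pathway list and the control and marker genes, of which 2 are not reported here. Other called pathway genes were named after their values were seen. No adjustment was made over a list alone.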

Additional observations from a re-analysis of the deposited data

How the results depend on the processing

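As deposited, 7 members were called higher and 5 lower, and 1 and 9 of the other pathway genes. Without a filter on low values these 4 counts were 3, 1, 0 and 0 (29186 genes tested, with 6 higher and 9 lower members and 3 higher and 9 lower other genes at an unadjusted p under 0.05). With a filter of 5 TPM, which left 20 members and 7 other genes, 3 members were higher and 6 lower. Of the 7 other genes, 1 was higher and 4 were lower. Rescaling over protein-coding genes, with 34 members and 33 other genes tested, gave 14 higher members and 8 higher other genes. Median-of-ratios scaling gave 6 and quantile normalization 3 higher other genes. With 1 library left out in turn, members called higher numbered 3 to 9, members called lower 1 to 10, other genes called higher 0 to 7 and other genes called lower 0 to 16. With a single library in a stage, its spread is assumed to equal that of the other stage. Of calls over all genes, 44.8% were higher as deposited, 65.6% (4102 against 2153) with TPM rescaled over protein-coding genes, 73.4% and 73.5% without differentiated replicate 1 or 2, 56.4% without undifferentiated replicate 1 and 32.4% without undifferentiated replicate 2. Under median-of-ratios scaling the log2 difference turned to 0.029 for HK2, 0.059 for ALDOC, 0.011 for PKM, 0.083 for PGD and 0.078 for HIF1AN. Under quantile normalization it turned to 0.44 for PKM, 0.32 for PGD, 0.28 for TKT and 0.14 for HIF1AN. After rescaling over protein-coding genes it turned to 0.43 for HK2, 0.49 for ALDOC, 0.091 for PGAM1, 0.44 for PKM, 0.51 for PGD, 0.28 for TKT, 0.53 for HIF1AN and 0.34 for TBP. With 1 library left out in turn it ranged from -0.19 to 0.092 for HK2, -0.085 to 0.047 for ALDOC, -0.20 to 0.39 for TPI1, -0.26 to 1.09 for PGK1, -0.37 to 0.13 for PKM, -0.33 to 0.68 for PDK1, -0.42 to 0.33 for PGD and -0.22 to 0.41 for TALDO1. Outside the members it ranged from -0.15 to 0.60 for VHL, -0.38 to 0.46 for EGLN1, -0.059 to 0.57 for EGLN2 and -0.40 to 0.36 for HIF1AN. The distance between stages in summed log2(TPM + 1) shares was 18.3 percentage points for PFK, 1.40 for ALDO, 2.38 for ENO, 5.10 for LDH, 29.9 for SLC2A and 45.1 for SLC16A, which compresses shares by construction. With the remaining paralogs added it was 1.84 for ENO and 65.8 for SLC16A. The cause of the other moves was not tested. Libraries with the same replicate number did not deviate together (correlation -0.024 across genes), so the number is not taken as a pairing. With a replicate block 8 members were higher and 4 lower, PDK2 being gained (limma adjusted p = 0.0497) and GPI lost (0.0893). TPM keeps no depth, so what depth limits could not be computed.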

Other observations

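Of 9 genes often used as constant references, 22.2% were called higher and 22.2% lower, close to the 18.6% and 22.8% of all tested genes. ACTB (355 and 389 TPM after against 181 and 217 TPM before differentiation) and B2M (227 and 183 against 78.1 and 44.8 TPM) were called higher. PPIA (71.2 and 66.7 against 315 and 176 TPM) and RPLP0 (157 and 194 against 362 and 295 TPM) were called lower (limma adjusted p = 0.0403, 0.00209, 0.00203 and 0.0454). These calls were kept in 6, 9, 9 and 3 of 12 alternatives. TBP, HPRT1, SDHA, YWHAZ and RPL13A were not called. GAPDH, a member used in the same way, differed by 2.19-fold between the undifferentiated libraries themselves.

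Several glycolytic genes have many processed copies in the genome, to which reads can be assigned by mistake. Copies were found by symbol, as the gene's name followed by P and a number. The 62 copies of GAPDH summed to 1.19 and 1.27 TPM after differentiation against 1.55 and 0.43 TPM before it, at most 0.488% of the total with GAPDH. The 6 copies of LDHA held at most 0.898% and the 3 copies of LDHB at most 1.12% of their totals. The largest share was that of the 13 PGAM1 copies, 9.56% in differentiated replicate 1 and 0% in undifferentiated replicate 2.

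Of the side branches, PGM1, which links glycogen to glycolysis, was at 0.60 and 0.42 TPM after against 1.68 and 1.14 TPM before differentiation. GPD1L, a glycerol 3-phosphate dehydrogenase relative, was at 1.00 and 0.77 against 2.51 and 2.62 TPM. Both were called lower (limma adjusted p = 0.0365 and 0.0265) and were named after their values were seen. They were called in 5 and 7 of 11 alternatives, and PGM1 passed the filter only through the undifferentiated libraries and so had to differ.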
